A study of Homo sapiens with 3 samples.

Results

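The 9 microRNA genes described here are MIR205HG, MIR203A, MIR21, MIR200B, MIR200A, MIR429, MIR200C, MIR141 and MIR34A, which are known for their roles in epithelial cells and carcinomas. Their surroundings were searched for sites of the transcription factors p63 and ZNF148 in a chromatin immunoprecipitation sequencing (ChIP-seq) experiment, in which an antibody pulls down a protein with the DNA it sits on and sequencing shows where that DNA comes from. A peak was taken as a member when its summit, the base of highest enrichment, lay within 50 kb of a gene position on genome build hg19. MIR200B, MIR200A and MIR429 share 1 such window and MIR200C and MIR141 another, so the 9 genes form 6 loci. These loci held 17 of 21520 p63 peaks and 50 of 37883 ZNF148 peaks. Gene positions were given to 1 kb, and distances under 1 kb are therefore within their error.

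The experiment used FaDu, an established pharyngeal squamous carcinoma cell line, without treatment. It comprised 1 library with an antibody to ΔNp63α, the N-terminally truncated form of p63 that marks basal cells of squamous epithelia, 1 library with an antibody to ZNF148, a zinc finger factor of GC-rich sites, and 1 input library without antibody. Each antibody gave 1 peak list, for which the labels name 3 independent ChIP assays, and the input has no list used here. No value below has a replicate error, and no test between conditions is possible. The lists do not give the read depth. The level of the microRNAs was not measured, and a peak near a gene does not show that the gene is controlled from it.

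MicroRNAs are short RNAs that guide the silencing machinery to messenger RNAs, mainly by pairing of their bases 2 to 8, the seed. miR-205 and the miR-200 family are known to keep epithelial cells epithelial by lowering ZEB1 and ZEB2, the repressors of E-cadherin. miR-203 is known in skin for lowering p63 itself as cells leave the basal layer. miR-21 is raised in many carcinomas, and miR-34a is best known as a direct target of p53, the relative of p63.

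The mature microRNAs of the 9 genes are shown because their sequences say which loci make microRNAs with the same seed. Of the 9 genes, 8 were matched by symbol in RefSeq (GRCh38.p14) and MIR205HG was matched through MIR205, the microRNA gene it hosts. Capitals mark the seed and each sequence runs 5′ to 3′.
miR-205-5p: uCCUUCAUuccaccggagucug
miR-200b-3p: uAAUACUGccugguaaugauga
miR-429: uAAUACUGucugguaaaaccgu
miR-200c-3p: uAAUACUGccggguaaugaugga
miR-200a-3p: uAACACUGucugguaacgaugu
miR-141-3p: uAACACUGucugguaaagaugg
miR-203a-3p: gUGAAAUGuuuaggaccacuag
miR-21-5p: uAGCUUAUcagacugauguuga
miR-34a-5p: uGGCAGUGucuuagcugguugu
The 9 microRNAs have 6 different seeds. AAUACUG is shared by miR-200b, miR-429 and miR-200c and AACACUG by miR-200a and miR-141. Each of these seeds is thus made from both miR-200 loci, on chromosomes 1 and 12. Counted from 1 at the 5′ end, miR-200b-3p and miR-200a-3p differ within the seed by the substitution U4C alone. Over the first 22 bases, miR-200b-3p and miR-200c-3p, from different chromosomes, differ by U11G and A22G, both outside the seed. They also differ in length, with 22 bases in miR-200b-3p and 23 in miR-200c-3p.

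Every locus had peaks of both proteins within 50 kb, and the ratio of their numbers differed from locus to locus. Within 25 kb, 4 of the 6 loci had a p63 peak and 5 a ZNF148 peak, a span for which no genome-wide share was computed. MIR205HG had 7 p63 and 9 ZNF148 peaks and was the richest in p63. MIR200C and MIR141 had 1 p63 and 15 ZNF148 peaks, the most for ZNF148. MIR203A had 2 p63 and 12 ZNF148 peaks. The cluster of MIR200B had 2 and 8, MIR21 had 3 and 4, and MIR34A had 2 and 2. The number of ZNF148 peaks per p63 peak thus ran from 1.00 at MIR34A to 15.0 at MIR200C, where it rests on 1 p63 peak. It was 1.29 at MIR205HG and 1.33 at MIR21. ZNF148 peaks are also the more numerous in the whole lists, 37883 against 21520 p63 peaks.

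Of 29510 windows of 100 kb laid end to end over chromosomes 1 to 22 and X, 44.9% held a p63 peak, 51.7% a ZNF148 peak and 32.7% both. The 6 loci compare with a mean of 0.729 p63 and 1.28 ZNF148 peaks per window. As many as 7 p63 peaks occurred in 59 windows, or 0.200%, and as many as 15 ZNF148 peaks in 123, or 0.417%. At least 12 ZNF148 peaks, the number at MIR203A, were found in 0.891% of windows. The other counts were commoner. At least 9, 8, 4 and 2 ZNF148 peaks, as at MIR205HG, MIR200B, MIR21 and MIR34A, occurred in 1.88%, 2.55%, 9.34% and 26.8%. At least 3 p63 peaks, as at MIR21, occurred in 6.41%, and at least 2, as at MIR203A, MIR200B and MIR34A, in 17.3%. The single p63 peak at MIR200C compares with the 44.9% above. These windows include gene-poor DNA and were not matched to the loci for gene density. The MIR205HG window measured 104 kb and that of the MIR200B cluster 102 kb, since their positions are intervals.

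**Figure D1:**
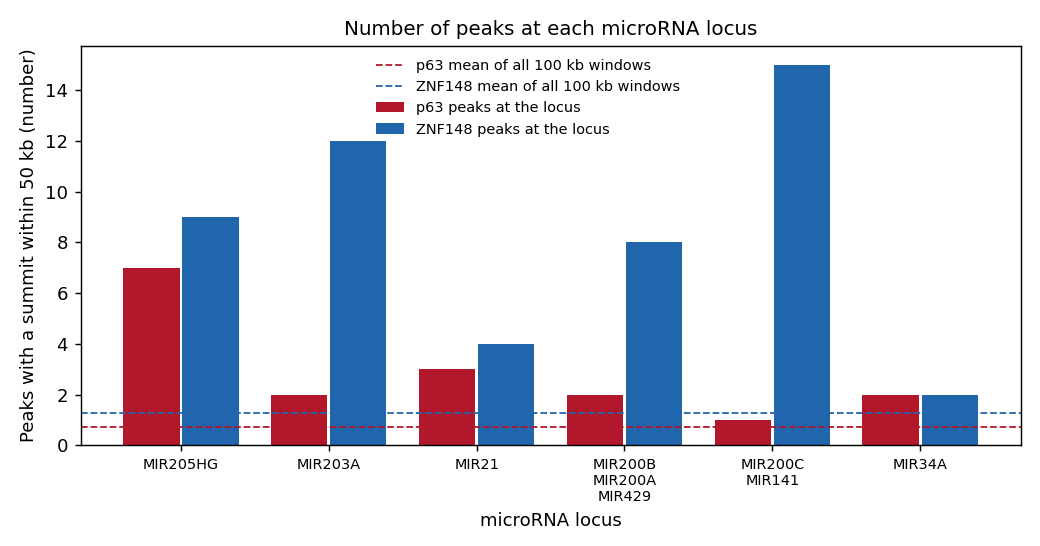
Number of peaks (vertical axis) with a summit within 50 kb of each microRNA locus (horizontal axis), p63 left and ZNF148 right. Dashed lines are the means of all 29510 windows, 0.729 for p63 and 1.28 for ZNF148. MIR205HG has the most p63 peaks, 7, and MIR200C with MIR141 the most ZNF148 peaks, 15.

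MIR205HG, the host transcript of miR-205, had p63 peaks on the gene and in a row upstream of it (chromosome 1, positive strand). The most significant peak of all 17 lay 12.4 kb upstream, at 209589323 to 209589815, with a fold enrichment of 63.8, the authors' own value for the peak. It ranked 149 of the 21520 p63 peaks by q value, the authors' adjusted p. A peak 16.8 kb upstream, at 209584875 to 209585339, had a fold of 43.8 and ranked 1187. The peak inside the gene interval, at 209604307 to 209604645, had a fold of 30.2. Another strong peak lay 44.6 kb upstream with a fold of 27.2. These 4 were above the upper quartile of the p63 list, 24.5, and the other 3 were weak. The weak peaks lay 39.2 kb upstream (fold 7.06), 29.9 kb upstream (fold 7.06) and 0.7 kb beyond the gene interval (fold 6.93).

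ZNF148 peaks at MIR205HG lay on both sides of the gene interval, and the strongest was close to its end. That peak, at 209606735 to 209607148, had a fold of 40.5 and lay within 1 kb of the interval's end. A second lay within 1 kb before the interval, at 209601183 to 209601662, with a fold of 17.5, and another 1.7 kb beyond the end with a fold of 12.5. No ZNF148 summit lay inside the interval as given to 1 kb, where the p63 fold was 30.2. The nearest ZNF148 summit was 2401 bp away from that p63 summit. Upstream, ZNF148 peaks had folds of 20.6 at 9.8 kb, 12.3 at 12.3 kb, 6.40 at 30.1 kb, 28.6 at 41.4 kb and 9.92 at 44.7 kb, and 1 peak of fold 9.38 lay 22.5 kb downstream.

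Both proteins met at 3 MIR205HG sites with opposite balance. At the strongest p63 peak, 12.4 kb upstream, the p63 fold was 63.8 and the ZNF148 fold 12.3, and the intervals shared 443 bp. At 44.6 kb upstream the p63 fold was 27.2 and the ZNF148 fold 9.92. Within 1 kb of the interval's end the order was turned round, with a p63 fold of 6.93 and a ZNF148 fold of 40.5. The summits with these folds lay 126, 64 and 185 bp apart at the 3 sites. At the first, a weaker ZNF148 summit of the same interval, with a fold of 8.19, lay 116 bp from that of p63. At 29.9 kb upstream weak peaks of both proteins came within 48 bp of each other without overlapping.

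**Figure D2:**
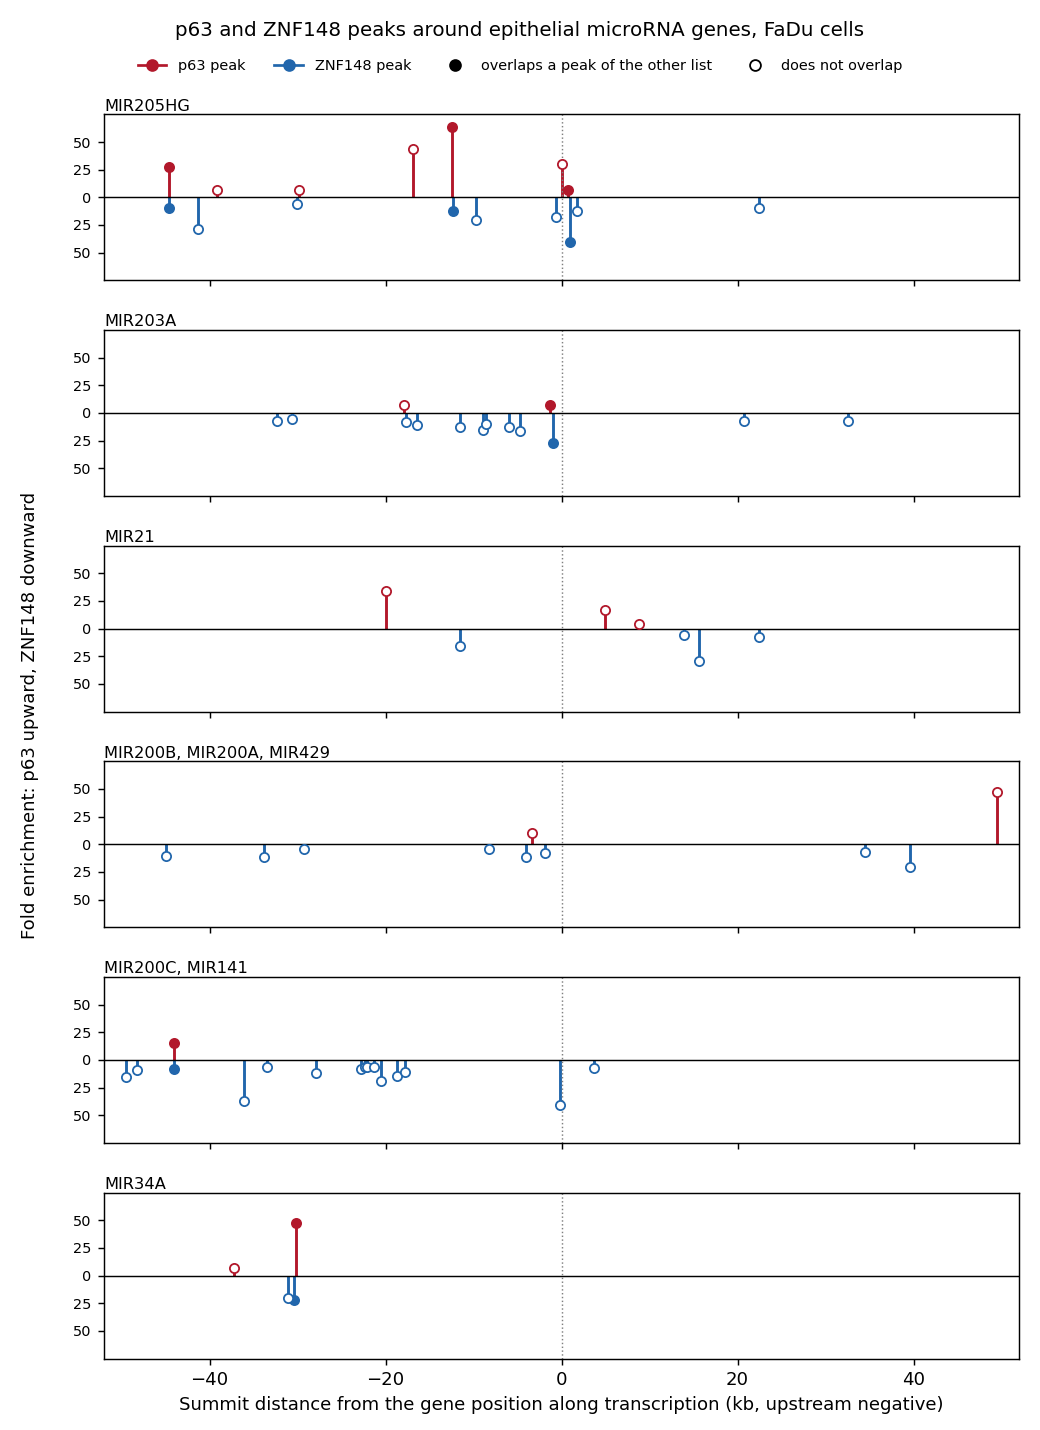
Summits at each locus by distance from the gene position along the direction of transcription (horizontal axis, kb, upstream negative), with the fold enrichment of p63 drawn upward and that of ZNF148 downward. Filled circles overlap a peak of the other list. p63 peaks crowd upstream of MIR205HG, ZNF148 peaks crowd upstream of MIR203A and MIR200C, and at MIR34A both stand about 30 kb upstream; a summit inside the MIR205HG interval is drawn at 0.

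MIR200C and MIR141, which lie side by side on chromosome 12, had a strong ZNF148 peak at the gene position and p63 only at a distance. The ZNF148 peak, at 7072383 to 7073260, covered the position itself. It was 878 bp long and had 3 summits, the weakest with a fold of 6.57 and the strongest with 40.6. By its best summit it ranked 2227 of 37883 ZNF148 peaks. The nearest p63 summit was 43825 bp away. That p63 peak, at 7028821 to 7029076, was the only one within 50 kb, lay 44.1 kb upstream and had a fold of 15.0. A ZNF148 peak with a fold of 8.66 lay inside it, with the summits 19 bp apart.

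The other ZNF148 peaks at MIR200C lay almost wholly upstream, 14 of 15 counting the one at the position. A peak 36.0 kb upstream, at 7036663 to 7037796, was 1134 bp long, had 2 summits with folds of 36.9 and 26.9 and was the longest at any of the loci. A run of 7 peaks between 22.8 and 17.7 kb upstream had folds of 6.04 to 19.5. Downstream a single peak of fold 7.27 lay 3.7 kb away. In the RefSeq gene order the coding genes nearest upstream are PTPN6, C12orf57 and ATN1 and the nearest downstream is PHB2, so peaks of this window may belong to these genes as well.

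At the MIR200B, MIR200A and MIR429 cluster on chromosome 1, which carries the same 2 seeds as the MIR200C locus, the peaks within 5 kb had folds of 7.50 to 11.5 and no peaks of the 2 proteins overlapped. The p63 peak nearest to it, at 1098522 to 1098767, lay 3.3 kb upstream with a fold of 10.3 and ranked 14819. ZNF148 peaks stood on either side of it, with a fold of 11.5 at 4.1 kb and 7.50 at 1.9 kb upstream. The closest summits of the 2 proteins were 715 bp apart, and 431 bp separated the intervals.

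The second p63 peak of this window was far stronger, with a fold of 47.2, but lay 49.4 kb downstream at 1153284 to 1153565, at the edge of the window. The strongest ZNF148 peak, with a fold of 20.2, was also far downstream, at 39.6 kb. The remaining 5 ZNF148 peaks had folds of 10.8 at 44.9 kb, 11.5 at 33.9 kb, 4.38 at 29.2 kb and 4.55 at 8.2 kb upstream and 7.21 at 34.5 kb downstream. TTLL10, TNFRSF18 and TNFRSF4 are the nearest downstream coding genes in the RefSeq order. Within 5 kb of the gene position the 2 miR-200 loci therefore differed. The best ZNF148 fold was 40.6 at MIR200C, on the position, and 11.5 at MIR200B, 4.1 kb upstream. Within the same 5 kb p63 had 1 peak at MIR200B and none at MIR200C.

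MIR203A on chromosome 14, whose product lowers p63 in skin, had weak p63 peaks and a dense run of ZNF148 peaks. The p63 peak nearest to it lay 1.3 kb upstream, at 104582631 to 104582823, with a fold of 6.81. The other lay 17.9 kb upstream with a fold of 7.50. Both were under the lower quartile of the p63 list, 8.39, and ranked 17134 and 18950 of 21520.

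The ZNF148 peak at MIR203A was the strongest of its window. At 104582686 to 104583378 it had 3 summits with folds of 22.1, 26.9 and 7.50, about 1 kb upstream of the gene position, and ranked 4167. It overlapped the p63 peak by 138 bp, with the nearest summits 114 bp apart. By its best summit, 317 bp from that of p63, the ZNF148 fold was 3.95 times the p63 fold. Upstream of it, 9 more ZNF148 peaks had folds of 5.63 to 15.9, and 2 downstream had folds of 7.21 and 6.88. The p63 peak at 17.9 kb missed a ZNF148 peak of fold 8.13 by 16 bp. ASPG and KIF26A are the coding neighbours.

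MIR21 on chromosome 17, which lies within the VMP1 gene in RefSeq, had p63 peaks with folds of 4.16 to 33.8 and ZNF148 peaks with folds of 5.95 to 29.5, none of which met. The p63 peaks lay 19.9 kb upstream at 57898916 to 57899215 with a fold of 33.8, 4.9 kb downstream at 57923774 to 57924057 with a fold of 16.7, and 8.8 kb downstream with a fold of 4.16. The ZNF148 peaks lay 11.5 kb upstream with a fold of 15.9, and 13.9, 15.7 and 22.4 kb downstream with folds of 5.95, 29.5 and 7.24. The strongest of these, at 57934466 to 57934833, ranked 1167 of 37883 by q value, the best rank of all 50 ZNF148 peaks. Along the chromosome a p63 peak and a ZNF148 peak preceded the gene and 2 p63 and then 3 ZNF148 peaks followed it. The closest summits of the 2 proteins were 5.1 kb apart, the widest such gap of the 6 loci. No ZNF148 peak lay within 5 kb of MIR21.

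MIR34A is transcribed from the negative strand of chromosome 1, and all its peaks lay upstream, on the side of its long host transcript MIR34AHG. The p63 peak 30.2 kb upstream, at 9242074 to 9242372, had a fold of 47.7 and ranked 2063 of 21520. A ZNF148 peak with a fold of 22.4, at 9242269 to 9242775, overlapped it by 104 bp with its summit 207 bp away. A second ZNF148 peak, at 9242914 to 9243189 and 31.1 kb upstream, had a fold of 20.2. The second p63 peak was weak, with a fold of 6.62 at 37.2 kb upstream. Within 5 kb of MIR34A itself neither list had a peak. Whether these sites lie at the start of MIR34AHG was not measured, because no hg19 annotation was used.

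Over the 6 loci, p63 fold enrichments were spread to both sides of those of the whole list. Their median was 15.0 with quartiles of 7.06 and 33.8, against 13.2 with quartiles of 8.39 and 24.5 for all p63 peaks. A fold of 10 or more was found in 10 of the 17, or 58.8%, against 65.1% of all p63 peaks. Among the most significant 10.0% of the list were 4 of the 17, namely 2 at MIR205HG and those at the edge of the MIR200B window and upstream of MIR34A.

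ZNF148 peaks at the loci had folds near those of their list. The median was 10.7 with quartiles of 7.22 and 15.9, against 9.83 with quartiles of 7.21 and 16.6 for all ZNF148 peaks. A fold of 10 or more was found in 28 of the 50, or 56.0%, against 49.6% of the list. Intervals with more than 1 summit numbered 4 of the 50, against 3.57% of the list. They lay at MIR200C, where there were 2, at MIR203A and at MIR205HG.

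**Figure D3:**
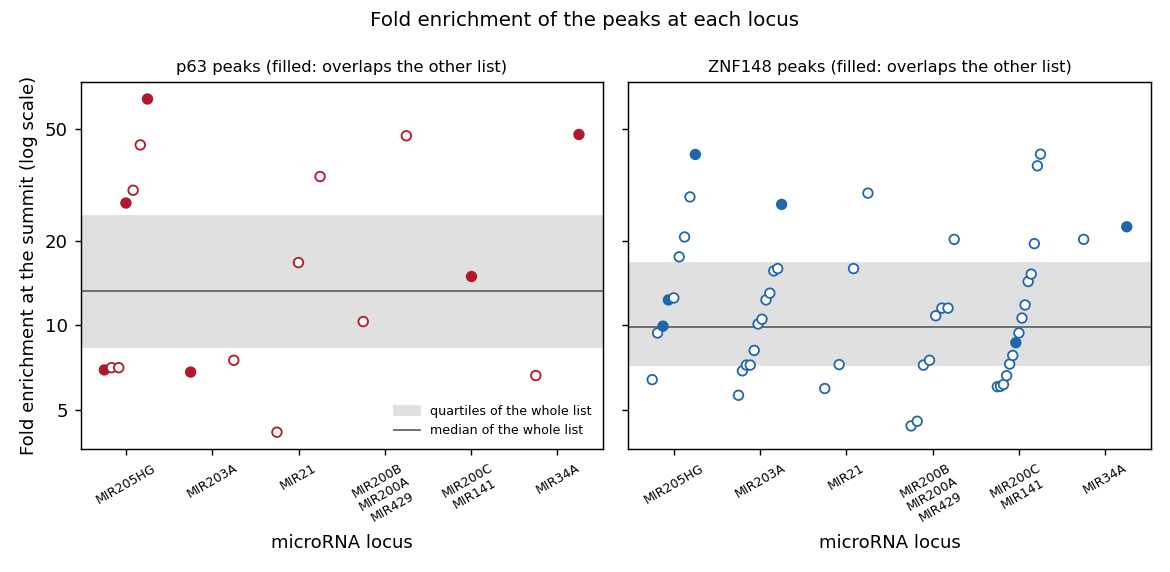
Fold enrichment at the summit (vertical axis, log scale) of each p63 peak (left) and ZNF148 peak (right) by locus, with filled circles for peaks that overlap the other list. The grey band spans the quartiles of the whole list, 8.39 to 24.5 for p63 and 7.21 to 16.6 for ZNF148. p63 peaks above the band come from MIR205HG, MIR21, the MIR200B window and MIR34A.

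Most summits of both proteins lay upstream, though not at every locus, and no such share was computed for the whole lists. Upstream of the gene lay 12 of the 17 p63 and 39 of the 50 ZNF148 summits, downstream 4 and 11, and inside the MIR205HG interval 1 and 0. MIR200C supplied 14 and MIR203A 10 of the 39, and MIR205HG 5 of the 12. At MIR21 most lay downstream, 2 of 3 p63 and 3 of 4 ZNF148 summits. Summits under 1 kb from a position were counted on the side where they fell, although that is within the position error. Within 5 kb of a gene lay 5 p63 peaks, with a median fold of 10.3, and 9 ZNF148 peaks, with a median fold of 15.9. Farther away the medians were 21.1 for the 12 other p63 peaks and 10.1 for the 41 other ZNF148 peaks. MIR205HG supplied 2 of the 5 p63 and 3 of the 9 ZNF148 peaks within 5 kb. No matching counts or medians were computed for the whole lists, and a relation of fold to distance was not tested. Of the 5 p63 peaks within 5 kb, the one inside MIR205HG had a fold of 30.2 and the one 4.9 kb from MIR21 a fold of 16.7, both above the list's median of 13.2, and the others had folds of 6.81 to 10.3.

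Overlap with ZNF148 was found at 6 of the 17 p63 peaks, which is 35.3% (17.3 to 58.7%, Wilson interval at 95% confidence), against 21.2% of all p63 peaks. The interval includes the share of the list, and when at least 50% of both peaks had to be covered the share at the loci was 17.6%, against 18.0% of the list. Overlap with p63 was found at 6 of the 50 ZNF148 peaks, which is 12.0% (5.62 to 23.8%), against 12.1% of all ZNF148 peaks. These intervals express counting error alone, as if peaks were independent, although peaks of 1 locus are neighbours. The 6 overlaps lay at 4 loci, 3 at MIR205HG and 1 each at MIR203A, MIR200C and MIR34A, and 13.6% of the 100 kb windows held such a p63 peak.

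Where the 2 proteins overlapped at these loci, their summits were mostly offset and their folds unequal. A ZNF148 summit within 25 bp of the p63 summit was present at 1 of the 6 sites, the one upstream of MIR200C, against 64.0% of all 4560 overlapping p63 peaks. Folds differed by a factor of at least 2 at 5 of the 6 sites, against 20.9% of all overlapping pairs. The p63 fold was the higher at 3 of these, 2 upstream of MIR205HG and 1 upstream of MIR34A, against 11.8% of all pairs. The ZNF148 fold was the higher at the other 2, near the end of MIR205HG and at MIR203A, against 9.08% of all pairs. Folds of the 2 antibodies were not put on a common scale, so they do not compare the amounts bound. Both limits were set with the values known, the sites number only 6, and 3 of them share a locus.

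**Figure D4:**
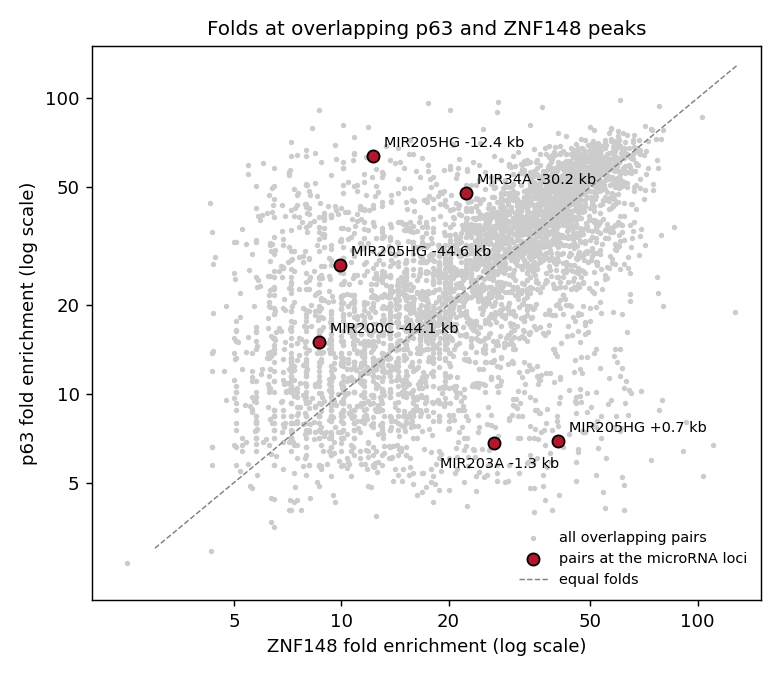
p63 fold (vertical axis, log scale) against ZNF148 fold (horizontal axis, log scale) at overlapping peaks, with the 6 pairs at the microRNA loci labelled by distance from the gene (negative upstream) and all 4560 pairs in grey. The dashed line marks equal folds. The pair near the end of MIR205HG (6.93 against 40.5) and the pair at MIR203A (6.81 against 26.9) lie below it and the other 4 above.

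For p63, peaks above the upper quartile of the list, 24.5, stood on both sides of the 50 kb limit. The p63 peak just inside it was the one at 49.4 kb from the MIR200B cluster (fold 47.2). Just outside lay p63 peaks 52.7 kb downstream of MIR205HG (fold 26.1), 55.0 kb upstream of MIR21 (fold 4.89) and 57.8 kb upstream of MIR205HG (fold 28.5). For ZNF148 the last peak inside lay 49.5 kb upstream of MIR200C (fold 15.2), and the first outside lay 50.6 kb upstream of MIR200C (fold 11.5) and 52.1 kb downstream of MIR203A (fold 12.5).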

How the data were processed

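Per the submitters' processing notes, the tools were MACS2 2.2.6, Bowtie2 2.3.4.3, SAMtools 1.7, FastQC 0.11.9 and MultiQC 1.12, and the build was hg19. Their roles and settings, the control library, duplicate removal and the treatment of the 3 ChIP assays are not stated in the sources used here. Without a header, columns were read in narrowPeak order. The fold enrichment of each peak is a ratio deposited by the authors, as are the −log10 p and −log10 q values, which rank peaks within a list. Peaks on chromosomes 1 to 22 and X were used. Rows of 1 interval were joined under the summit of best q value, which turned 21708 p63 rows into 21520 peaks and 39462 ZNF148 rows into 37883. Coordinates are 1-based hg19. Overlap means at least 1 bp and was checked against bedtools 2.31.1 and tested on simulated intervals. Background windows run from the first to the last peak of a chromosome. Strand, gene order and microRNA sequences come from RefSeq GRCh38.p14, and no coordinate was converted. Python 3.11.15, numpy 2.4.6, pandas 2.3.3 and scipy 1.17.1 were used.

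All 9 genes are named; peaks described singly are the nearest, the most significant and the overlapping ones of a window and all peaks of windows with 5 or fewer, and further ones were chosen after their values were seen. Genes, limits and comparisons were chosen with earlier results of these data known. Alternatives were other window sizes, stricter q limits, every summit, merged peaks, other overlap rules and lists of equal length.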

Additional observations from a re-analysis of the deposited data

How the results depend on the processing

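No paired analysis was possible because each antibody has 1 library, and leaving out a replicate was not possible for the same reason. Of 54 recomputed values at the loci, 46 lay inside a range set around the reported value and 8 moved outside it. The range was the Wilson interval for shares and a binomial interval of the ranked folds for medians. For counts it was a factor of 1.5, under which 4 loci in place of 6 were still inside. With 25 kb to either side the loci held 10 p63 and 31 ZNF148 peaks, at 4 and 5 of the 6 loci, and with 100 kb 26 p63 peaks. Shares of genome windows were not recomputed for these sizes. A −log10 q of at least 10 left 33 ZNF148 peaks with a median fold of 14.3, and lists of equal length left 31. At 4 of the 6 overlaps the nearest summits were over 100 bp apart, so with summits within 100 bp, 11.8% of p63 and 4.0% of ZNF148 locus peaks were shared, against 18.4% and 10.4% of the whole lists.

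Of the background shares, recomputed as alternatives chosen after seeing the data, the share of p63 peaks that overlap became 18.0% with 50% of both peaks covered and 18.8% with lists of equal length. Under that coverage rule 17.6% of the locus p63 peaks, 3 of 17, and 6.0% of the locus ZNF148 peaks overlapped, so the p63 share was no longer above that of the list. That of ZNF148 peaks became 12.5% with a −log10 q of at least 5, 16.7% with at least 10, 10.2% with 50% covered and 18.8% with equal lengths. Windows with a ZNF148 peak became 50.5% and 40.6% at these q limits and 37.9% with equal lengths, and windows with a p63 peak 42.3% at a −log10 q of at least 10. Depth is unknown, so sites missing from a list may be bound more weakly than its limit.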

Other observations

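At MIR21 some peaks were more significant than their fold would give elsewhere in the same list. The p63 peak 4.9 kb downstream had a fold of 16.7 and a −log10 q of 123, while p63 peaks with a fold within 10% of it had a median −log10 q of 43.0, and 0.834% of them reached its value. The ZNF148 peak 15.7 kb downstream of MIR21 had a fold of 29.5 and a −log10 q of 126, against a median of 64.9 for peaks of similar fold, of which 0.343% reached it. The p63 peak 19.9 kb upstream of MIR21 had a −log10 q of 114, against a median of 115 for its fold. Within 500 kb of MIR21, 1 of 12 p63 and 4 of 15 ZNF148 peaks were above the 90th percentile of peaks of similar fold, a limit that about 10% of a list passes. These were the p63 peak 4.9 kb downstream and all 4 ZNF148 peaks within 50 kb of MIR21. Around MIR205HG the numbers were 5 of 18 p63 and 2 of 17 ZNF148 peaks, among them the p63 peak 44.6 kb upstream, with a −log10 q of 147 against a median of 85.9. Around MIR203A, the MIR200B cluster and MIR34A no peak of either list was above that limit, and around MIR200C 2 of 9 p63 and 4 of 60 ZNF148 peaks were. Ranks by q and by fold thus order the peaks at MIR21 differently, and the cause was not tested. This comparison was added after the values had been seen.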
